A study of Rattus norvegicus with 3 samples.

Results

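Kidney RNA of the Dahl salt-sensitive rat (Dahl S) was set against that of the Dahl salt-resistant rat (Dahl R), gene by gene, over protein-coding records that were alone at their locus and had a mean of at least 1 FPKM over all 3 deposited tables. FPKM is a level per transcript length, with the sequenced fragments also scaled to the size of the library. The rule left 10812 genes, of 22938 protein-coding records and of 33194 records in all. Another 4973 protein-coding records share a locus with other records, and 7153 that are alone at theirs fall under the minimum. The Dahl S library came from kidney of rats aged 53 days and the Dahl R library from kidney of rats aged 54 days. All rats had been weaned at 30 days and then fed a low-salt diet with 0.3% salt. Total RNA had been depleted of ribosomal RNA. The remaining library, from the spontaneously hypertensive rat (SHR, 55 days, same diet), entered the mean used as a minimum and is quoted beside some genes. With 1 library per strain, no spread between animals was at hand to test a difference against, and strain, age and individual animals cannot be told apart. The sources used here give neither the number and sex of the animals nor the time of day of collection.

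The Dahl strains were bred from one outbred rat stock by selection for the blood pressure response to a salty diet. Dahl S rats become hypertensive and develop kidney damage on high salt, whereas Dahl R rats do not. The animals here were on low salt. The kidney sets the body's salt balance: the proximal tubule reabsorbs most of the filtered sodium, glucose and amino acids and makes glucose and ammonia, and the later segments adjust salt, acid and water under hormonal control.

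Both libraries carried the genes that define kidney. In the Dahl S library *Umod*, the urinary protein of the loop of Henle, was listed at 4028 FPKM, against 4475 FPKM in the Dahl R library. *Aqp2*, the water channel of principal cells, was listed at 419.6 FPKM in Dahl S and 409 FPKM in Dahl R. The liver genes *Alb* and *Ttr* were under 1 FPKM in both libraries, as were the adrenal steroid synthase genes *Cyp11b1* and *Cyp11b2*, and the pancreatic gene *Prss1* was listed at 0. Some markers of other tissues were present. The adipocyte gene *Ucp1* had 37.7 FPKM in Dahl S and 26.3 FPKM in Dahl R, and *Adipoq* had 16.6 and 14.2 FPKM. Of skeletal muscle genes, *Acta1* had 9.81 FPKM in Dahl S and 7.85 FPKM in Dahl R, while *Ckm* was under 1 FPKM in both. The adrenal gene *Star* had 1.12 FPKM in Dahl S and 1.01 FPKM in Dahl R. Mitochondrially encoded records held 21.9% of the Dahl S total and 24.8% of the Dahl R total. Among haemoglobin genes, *Hba-a2* was listed at 5445 (2579 to 8311) FPKM in Dahl S and 2321 (1283 to 3359) FPKM in Dahl R, with overlapping deposited limits. LOC689064, a haemoglobin beta record, had limits apart at 1206 (781 to 1630) FPKM in Dahl S and 488 (331 to 644) FPKM in Dahl R. The 7 red blood cell genes among the members summed to 5641 FPKM in Dahl S and 2483 FPKM in Dahl R, mostly *Hba-a2*. By the 2-fold rule given below, 1 of the 7 was higher and 1 lower, against 1.5% of all genes called, and their median log2 ratio was 0.32.

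Most genes had similar levels in both kidney libraries. The median log2 ratio of FPKM plus 1, Dahl S over Dahl R, was 0.04, the 5th and 95th percentiles were −0.44 and 0.55, and 10073 genes (93.2%) lay within 1.5-fold. Across genes, which are not independent replicates, Pearson's r of the log2 values was 0.981. A gene was called higher or lower when this log2 ratio was at least 1 in size. By that rule 162 genes (1.5%) differed, 92 (0.851%) higher and 70 (0.647%) lower in Dahl S. The counts of calls in lists and families below are to be read beside these shares of all genes. A second check used the lower and upper limits deposited with each FPKM, given in parentheses below. The sources used here do not state their confidence level, and they speak for a single library and not for differences between animals. Limits were counted as apart where the gap between them was over 1e-06 FPKM. The limits of both libraries were apart for 103 of the 162 (0.953% of all genes), 50 higher (0.462%) and 53 lower (0.49%). They were also apart for 67 genes under 2-fold, 40 on the higher and 27 on the lower side, which makes 170 genes (1.57%) with limits apart at any fold.

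The share of calls backed by the limits differed with level. Among genes with a mean of 1 to 2 FPKM, 3.32% were called and the limits were apart for 34.2% of those calls. Among genes of 5 to 20 FPKM, 1.04% were called and the limits were apart for 84.4% of the calls. The smaller value was under 1 FPKM in 54 of the 162 calls, in the Dahl R library for 40 and in the Dahl S library for 14. Just inside the threshold stood *Cytip* and *Pou2af1* on the higher side, with log2 ratios of 1.0038 and 1.01, and *Hpdl* and D3ZH27_RAT on the lower side, with −1.0019 and −1.0003. Just outside it stood D3ZDE9_RAT and D3ZFX2_RAT on the higher side, with 0.9969 and 0.99, and DJC27_RAT and *Napb* on the lower side, with −0.99 and −0.98. Of the called genes, 60 have no gene symbol in the files and 45 are described there only as uncharacterized proteins.

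**Figure D1:**
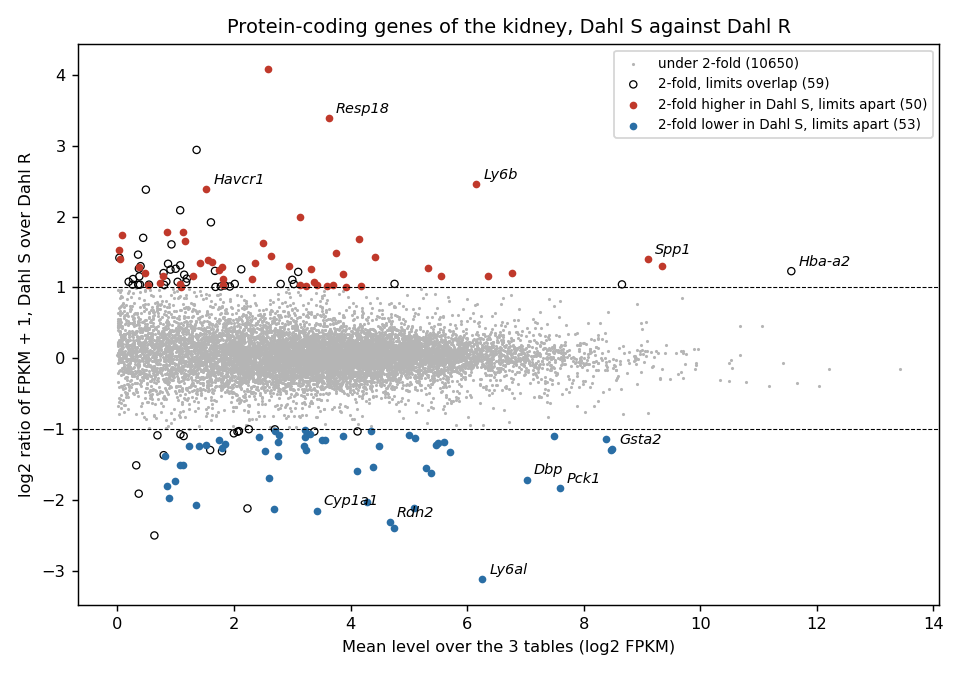
Log2 ratio of FPKM + 1, Dahl S over Dahl R (vertical axis), against the log2 of the mean FPKM over the 3 tables (horizontal axis), 1 point per gene for 10812 genes. The 50 genes higher in Dahl S with limits apart are red, the 53 lower ones blue and the 59 called genes with overlapping limits open, and the dashed lines mark a ratio of 1 in size. Most open points lie at low levels.

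The gene with the highest ratio was LOC100362296, an uncharacterized protein, which was listed at 17.8 (9.73 to 25.9) FPKM in Dahl S, against 0.117 (0 to 0.521) FPKM in Dahl R, with no overlap of the limits. SHR, at 0.0707 FPKM, was as low as Dahl R. Among genes with a symbol, *Resp18*, a protein of endocrine and nerve cells, was listed at 23.2 (14.9 to 31.4) FPKM in Dahl S, against 1.31 (0.438 to 2.19) FPKM in Dahl R. It lies at chr9:74551809-74558151 in the coordinates of the files, whose build the sources used here do not state. The next rank held *Ly6b*, of a family of small lipid-anchored surface proteins, at 117 (83.2 to 151) FPKM in Dahl S, against 20.4 (13.7 to 27.2) FPKM in Dahl R. Lowest of all stood *Ly6al*, a relative of *Ly6b* from the same gene cluster, at 20.6 (12.7 to 28.5) FPKM in Dahl S, against 186 (132 to 240.2) FPKM in Dahl R, with a log2 ratio of −3.12. The SHR library had 23.8 FPKM of *Ly6al*, close to Dahl S.

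**Figure D2:**
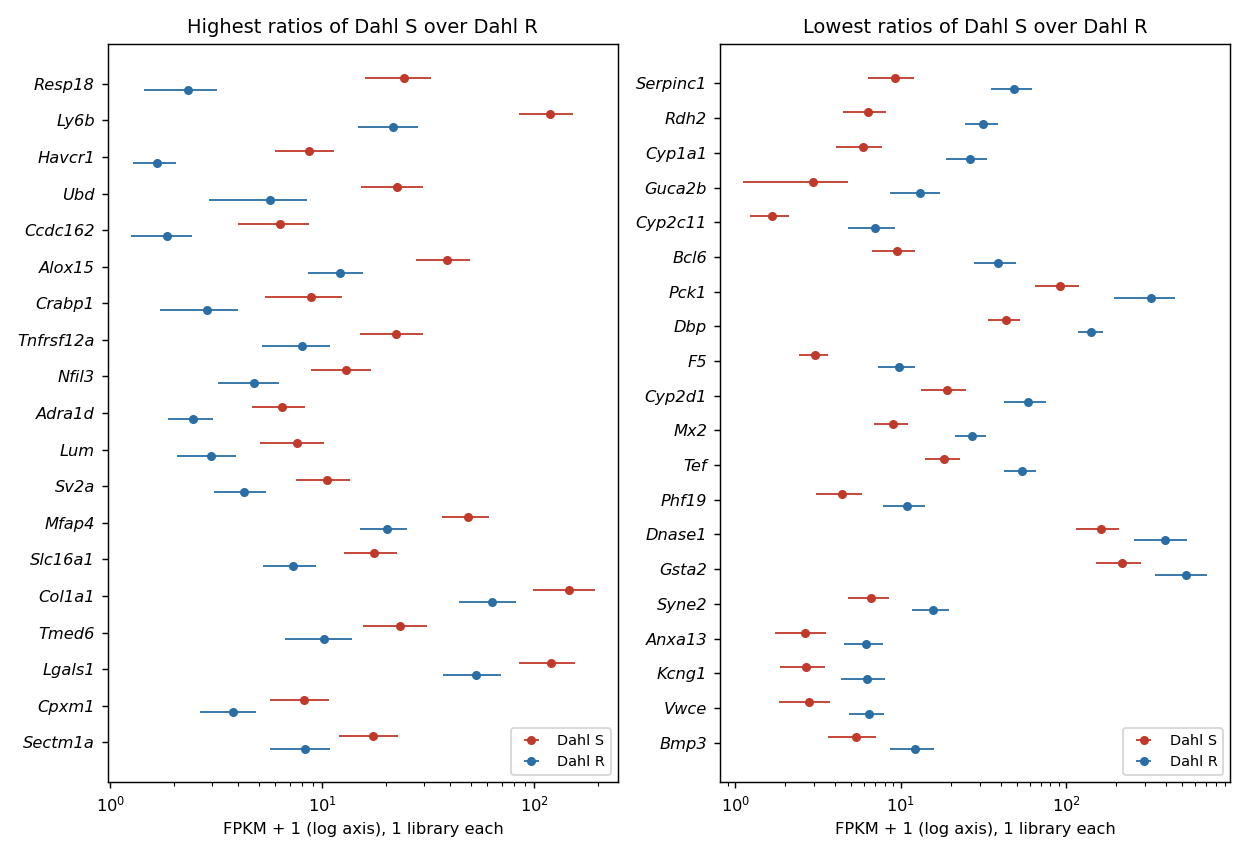
FPKM + 1 on a log axis, with the deposited limits as bars, for 19 of the 20 highest (left) and 20 lowest (right) ratios among genes with a symbol, limits apart and a larger value of at least 5 FPKM. Red points are the Dahl S library and blue points the Dahl R library, 1 library each, and no pair of bars overlaps because this was a condition of the choice.

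Nearly all genes of the fibroblast and its matrix had a ratio above 0, and 3 were called. Of 28 members of this list, 27 lay above 0, against 6105 (56.5%) of all genes, and the median log2 ratio was 0.46 against 0.04 over all genes. In this list 3 were called higher and 0 lower, against 0.851% and 0.647% of all genes. *Lum*, a proteoglycan that spaces collagen fibrils, was listed at 6.604 (4.09 to 9.12) FPKM in Dahl S, against 1.99 (1.05 to 2.93) FPKM in Dahl R. *Mfap4*, a glycoprotein bound to elastic microfibrils, was listed at 47.6 (35.4 to 59.8) FPKM in Dahl S, against 19.1 (13.97 to 24.1) FPKM in Dahl R. The third was *Col1a1*, a chain of type I collagen, with a log2 ratio of 1.21. SHR had 6.74 FPKM of *Lum* and 53.7 FPKM of *Mfap4*, levels near those of Dahl S.

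Under the threshold, but with limits apart, were *Eln*, which encodes elastin, at 45.96 (36.6 to 55.3) FPKM in Dahl S, against 24.02 (18.7 to 29.3) FPKM in Dahl R, and *Tagln*, an actin-binding protein of smooth muscle and activated fibroblasts, at 149 (106 to 192) FPKM in Dahl S, against 79.7 (56.7 to 103) FPKM in Dahl R. The partner chain of *Col1a1*, *Col1a2*, had 86.5 FPKM in Dahl S and 50.2 FPKM in Dahl R, and *Col3a1* had 117 FPKM in Dahl S and 68.1 FPKM in Dahl R, both with overlapping limits. Over the 24 genes of the collagen family, 1 was called, against 1.5% of all genes, and the median was 0.43. The type IV chains of basement membrane were split: *Col4a1* had 158 FPKM in Dahl S and 117 FPKM in Dahl R, while *Col4a3* had 40.2 FPKM in Dahl S and 40.9 FPKM in Dahl R, and *Col4a4* had 50.5 FPKM in Dahl S and 54.7 FPKM in Dahl R.

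Of 19 matrix metalloproteinases, ADAMs and TIMPs, 1 was called lower and 0 higher, against 0.647% and 0.851% of all genes. Of the 19, 14 lay above 0, against 56.5% of all genes, and the median was 0.33. The call was *Mmp9*, the gelatinase that cleaves denatured collagen, at 3.04 (1.98 to 4.104) FPKM in Dahl S, against 7.57 (5.45 to 9.69) FPKM in Dahl R. *Adam19*, a membrane-bound metalloproteinase, had a log2 ratio of 0.89 with limits apart. *Cpxm1*, a secreted protein related to carboxypeptidases and outside that family, was called higher, at 7.17 (4.64 to 9.71) FPKM in Dahl S, against 2.77 (1.66 to 3.88) FPKM in Dahl R. *Lgals1*, a sugar-binding protein (galectin) made by mesenchymal cells, was called higher at 119 (83.6 to 154) FPKM in Dahl S, against 52.2 (35.9 to 68.5) FPKM in Dahl R. Marker lists of other cells included smooth muscle (11 members, median 0.30, 0 called, summing to 524 FPKM in Dahl S and 384 FPKM in Dahl R) and macrophages (16 members, median 0.21, 0 called, 674 FPKM in Dahl S and 571 FPKM in Dahl R). Medians were 0.27 for nerve and glia, 0.24 for intercalated cells and 0.23 for adipocytes. They were 0.06 for endothelium, −0.03 for podocytes and −0.14 for lymphocytes. The last 2 turned to 0.09 with shared loci included and to 0.01 without a minimum mean. *Tagln* belongs to the matrix and the smooth muscle list. No member of the smooth muscle or macrophage list was at 0, and the part of any of these cells in the result was not tested. In bulk tissue, more cells of a type and more RNA per cell cannot be told apart.

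Genes of tubular injury and repair held higher calls only. Of 25 members, 4 were called higher and 0 lower, against 0.851% and 0.647% of all genes. All 4 had limits apart, against 0.462% of all genes higher with limits apart. A ratio above 0 was found for 20, against 56.5% of all genes, and the median was 0.34. How reads were divided in the gene cluster of *Ly6b*, 1 of the 4, is not given. Beside *Ly6b*, *Havcr1* and *Spp1*, the fourth was *Tnfrsf12a*, the receptor for the cytokine TWEAK, at 21.3 (13.99 to 28.7) FPKM in Dahl S, against 7.0004 (4.18 to 9.82) FPKM in Dahl R. *Havcr1*, the injury protein KIM-1 of proximal tubule cells, was at 7.64 (4.998 to 10.3) FPKM in Dahl S, against 0.653 (0.276 to 1.03) FPKM in Dahl R, low in both libraries beside *Spp1*, the secreted matrix protein osteopontin, at 929 (618 to 1240.5) FPKM in Dahl S, against 352 (244 to 460.2) FPKM in Dahl R. *Clu*, an extracellular chaperone, had limits apart at 173 FPKM in Dahl S and 106 FPKM in Dahl R. Other members had ratios near or below 0: the keratins *Krt8*, *Krt19* and *Krt7* had log2 ratios of −0.08, −0.09 and 0.17, and *Tff3*, a secreted peptide of epithelia, had 2284 FPKM in Dahl S and 3002 FPKM in Dahl R.

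Immediate early and growth factor response genes lay above 0 in 23 of 25 cases, against 56.5% of all genes, with a median of 0.39. They held 2 calls, both higher, against 0.851% of all genes. *Egr1*, a transcription factor induced by growth signals, had a log2 ratio of 1.04. *Dusp6*, the phosphatase that switches off ERK kinases, was listed at 24.3 (17.2 to 31.5) FPKM in Dahl S, against 11.4 (7.89 to 14.96) FPKM in Dahl R. *Myc*, at 6.73 FPKM in Dahl S and 3.64 FPKM in Dahl R, and *Socs3*, a feedback inhibitor of cytokine signalling, at 5.302 FPKM in Dahl S and 2.39 FPKM in Dahl R, were under the threshold. SHR was above Dahl S for *Egr1*, at 23.3 FPKM, and between the Dahl libraries for *Dusp6*, at 18.7 FPKM.

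Against 1.5% of all genes called in either direction, the unfolded protein response held 1 call among 18 members and the p53 list 2 among 17. In the unfolded protein response *Chac1*, which degrades glutathione, was called higher, at 2.17 (1.07 to 3.27) FPKM in Dahl S, against 0.512 (0.1501 to 0.875) FPKM in Dahl R, and the median was 0.21. The main chaperone of the endoplasmic reticulum, *Hspa5*, had 184 FPKM in Dahl S and 125 FPKM in Dahl R, under the threshold. In the p53 list *Pmaip1* and *Cdkn1a*, which promote cell death and cell cycle arrest, were called higher, at 2.68 FPKM in Dahl S and 0.334 FPKM in Dahl R, and at 5.64 FPKM in Dahl S and 2.29 FPKM in Dahl R, but the limits overlapped for both and the median of that list, 0.16, turned to −0.05 with a minimum mean of 5 FPKM. *Hmox1*, the haem-degrading enzyme, had limits apart under the threshold, at 17.6 (11.5 to 23.7) FPKM in Dahl S, against 8.66 (5.802 to 11.5) FPKM in Dahl R. The haemoglobin level given above was also higher in Dahl S, and its part in this value was not tested.

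All 10 MHC class II genes, which present antigen on macrophages, dendritic cells and B cells, lay above 0, against 56.5% of all genes. Their median was 0.48, with 0 calls, a count near the 1.5% of all genes called. These genes are related to one another, and how reads were divided between them is not given. The range ran from *RT1-Db2* at 11.7 FPKM in Dahl S and 11.1 FPKM in Dahl R to *RT1-Db1* at 189 FPKM in Dahl S and 119.7 FPKM in Dahl R. *RT1-Ba* and *RT1-Da*, 2 of the chains that bind peptide, had 135 FPKM in Dahl S and 94.99 FPKM in Dahl R, and 175 FPKM in Dahl S and 124 FPKM in Dahl R. Complement genes had a median of 0.21 over 15 members and 0 calls.

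The interferon list (32 members, median 0.20) held 1 call in each direction, beside 1.5% of all genes called. *Ubd*, a ubiquitin-like modifier induced by interferon gamma and tumour necrosis factor, was higher at 21.5 (14.2 to 28.9) FPKM in Dahl S, against 4.66 (1.91 to 7.41) FPKM in Dahl R. *Mx2*, an interferon-induced GTPase, was lower at 7.95 (5.92 to 9.99) FPKM in Dahl S, against 26.05 (20.3 to 31.8) FPKM in Dahl R. *Ddx58*, the RNA sensor RIG-I, was also on the lower side with limits apart, at 10.1 FPKM in Dahl S and 16.6 FPKM in Dahl R. Most other members, such as *Isg15* at 22.5 FPKM in Dahl S and 18.96 FPKM in Dahl R, and *Irf7* at 27.5 FPKM in Dahl S and 27.3 FPKM in Dahl R, lay within 1.5-fold.

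Of 38 cytokines, chemokines and receptors, 2 were called higher and 1 lower, against 0.851% and 0.647% of all genes. Chemokines among them were *Ccl7*, which attracts monocytes, called higher at 1.9001 (0.668 to 3.13) FPKM in Dahl S, against 0.2601 (0 to 0.628) FPKM in Dahl R, and *Ccl5*, which attracts T cells, called lower at 10.5 (5.84 to 15.2) FPKM in Dahl S, against 23.5 (15.2 to 31.8) FPKM in Dahl R. Of 16 lymphocyte markers 1 was called, against 1.5% of all genes. The T cell receptor components *Cd3d*, *Cd3e* and *Cd3g* had log2 ratios of −0.62, −0.42 and −0.45, none called. The call was *Cd7*, higher at 3.35 (1.63 to 5.07) FPKM in Dahl S, against 0.826 (0.242 to 1.41) FPKM in Dahl R, and its chromosomal neighbour *Sectm1a*, whose human counterpart encodes a ligand of CD7, was called higher as well at 16.4 (10.98 to 21.7) FPKM in Dahl S, against 7.24 (4.64 to 9.84) FPKM in Dahl R. *Alox15*, a lipoxygenase of leukocytes and epithelia, had a log2 ratio of 1.68.

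The circadian clock and its outputs held 5 calls among 16 members, against 1.5% of all genes called, and had a median of −0.18. Clock proteins of the positive arm (*Arntl*, *Clock*, *Npas2*) bind E-boxes and drive the period and cryptochrome genes, which feed back on them, and the PAR bZIP factors *Dbp*, *Tef* and *Hlf*, which carry the rhythm to metabolic genes through D-boxes. The calls were 1 higher and 4 lower, all with limits apart, against 0.462% and 0.49% of all genes. In 3 more members the limits were apart under 2-fold. All 3 PAR bZIP factors were lower: *Dbp* at 41.9 (32.7 to 51.1) FPKM in Dahl S, against 140.0 (116 to 164) FPKM in Dahl R, *Tef* at 17.3 (12.96 to 21.7) FPKM in Dahl S, against 52.8 (40.9 to 64.6) FPKM in Dahl R, and *Hlf* at 2.56 (0.751 to 4.38) FPKM in Dahl S, against 8.25 (4.39 to 12.1) FPKM in Dahl R. *Hlf* is the weakest of them in level and was matched by its description in the files. Their log2 ratios were −1.72, −1.55 and −1.38.

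The feedback arm was graded. *Per3* was called lower, with a log2 ratio of −1.15. *Per2* had limits apart under the threshold at 7.55 (5.51 to 9.59) FPKM in Dahl S, against 13.1 (9.91 to 16.3) FPKM in Dahl R, and *Per1* had 10.5 FPKM in Dahl S and 13.6 FPKM in Dahl R with overlapping limits. *Cry2* lay below 0, at −0.24, and *Cry1* above it, at 0.69. The positive arm and the D-box repressor *Nfil3* stood on the other side, with log2 ratios of 0.87 for *Arntl*, 0.90 for *Npas2* and 1.44 for *Nfil3*, all with limits apart, while *Clock* itself had −0.12. Time of day of collection sets the level of such genes and is not given, so strain and hour cannot be told apart here.

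Promoters of the called genes were read from RefSeq (build GRCr8), from 250 bases before to 50 after each start. The E-box CACGTG, which reads the same on both strands, was found in 4 of the 27 lower genes with a promoter in that table and in 3 of the 50 higher ones, against 9.21% of the 6016 members with a promoter and 6.42% of all 33469 promoters. The 4 were *Tef*, *Bcl6*, *Dnase1* and *Cndp1*, and the 3 were *Slc16a1*, *Defb25* and *Cfl2*. *Dbp* and *Per3*, clock genes called lower, had a promoter in that table without this E-box. *Tef*, *Bcl6* and *Dnase1* belong to the 20 lowest ratios among genes with a symbol, limits apart and a larger value of at least 5 FPKM. Their promoters are shown with the E-box in capitals.
*Tef* (chr7:115206577-115206876, plus strand): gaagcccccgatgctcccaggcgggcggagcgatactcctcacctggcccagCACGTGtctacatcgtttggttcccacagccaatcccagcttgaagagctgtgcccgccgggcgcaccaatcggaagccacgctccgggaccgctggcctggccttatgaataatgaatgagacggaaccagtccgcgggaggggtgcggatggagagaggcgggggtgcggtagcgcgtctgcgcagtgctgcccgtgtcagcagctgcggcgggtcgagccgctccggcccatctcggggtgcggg
*Bcl6* (chr11:90358503-90358802, plus strand): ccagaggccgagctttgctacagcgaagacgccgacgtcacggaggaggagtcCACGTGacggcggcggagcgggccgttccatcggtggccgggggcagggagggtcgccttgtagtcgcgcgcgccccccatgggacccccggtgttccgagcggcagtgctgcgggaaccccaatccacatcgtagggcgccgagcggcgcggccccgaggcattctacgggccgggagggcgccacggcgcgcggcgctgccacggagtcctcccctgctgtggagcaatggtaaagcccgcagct
*Dnase1* (chr10:12008195-12008494, minus strand): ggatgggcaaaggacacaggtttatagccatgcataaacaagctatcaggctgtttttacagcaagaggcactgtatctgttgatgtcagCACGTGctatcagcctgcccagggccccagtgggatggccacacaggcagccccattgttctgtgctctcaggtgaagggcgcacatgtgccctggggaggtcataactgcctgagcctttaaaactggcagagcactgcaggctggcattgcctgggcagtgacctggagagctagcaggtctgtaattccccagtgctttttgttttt

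The E-box begins at −198 in the *Tef* promoter, at −197 in that of *Bcl6* and at −160 in that of *Dnase1*, counted from the start. The match describes the letters and is no evidence of binding. The D-box TTANGTAA, searched on both strands, was found in 1 of the 27 lower genes (*Phf19*), in 0 of the 50 higher ones, in 1.23% of those of all members and in 2.24% of all promoters. *Bcl6*, a transcriptional repressor, was listed at 8.497 (5.74 to 11.3) FPKM in Dahl S, against 37.5 (26.6 to 48.5) FPKM in Dahl R, and SHR had 12.2 FPKM. *Dnase1*, a secreted nuclease that digests extracellular DNA, was listed at 160.2 (113 to 208) FPKM in Dahl S, against 394 (255 to 533) FPKM in Dahl R, and SHR, at 504 FPKM, was higher still. *Cndp1*, the dipeptidase that splits carnosine, was listed at 25.7 (18.1 to 33.2) FPKM in Dahl S, against 55.7 (39.3 to 72.1) FPKM in Dahl R.

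**Figure D3:**
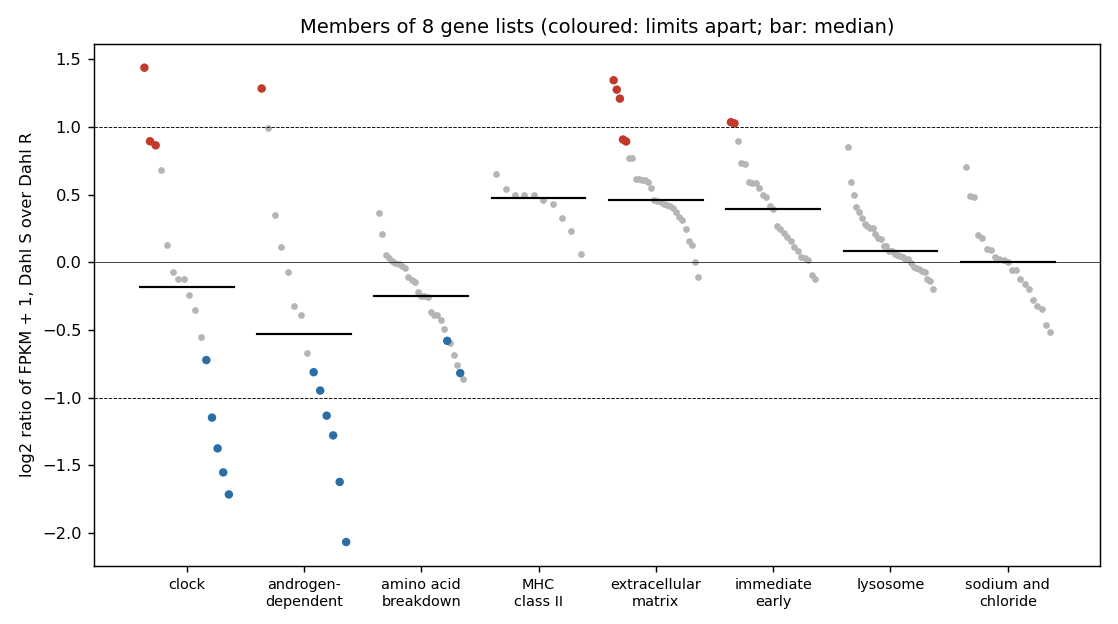
Log2 ratio of FPKM + 1, Dahl S over Dahl R (vertical axis), for each member of 8 gene lists, sorted within the list. Coloured points have limits apart (red higher, blue lower in Dahl S), black bars are list medians and dashed lines mark the 2-fold threshold. Clock and androgen-dependent genes reach both beyond 1 and below −1, whereas the MHC class II genes lie together between 0.06 and 0.65.

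Genes of glucose synthesis and amino acid breakdown, 2 metabolic pathways of the proximal tubule, had medians below 0. *Pck1*, the rate-limiting enzyme of glucose synthesis, was called lower at 90.4 (63.3 to 117) FPKM in Dahl S, against 324 (194 to 453) FPKM in Dahl R. It was the single call among 8 members of its pathway, against 1.5% of all genes called, and their median was −0.21. Of these members, *Fbp1* had 383 FPKM in Dahl S and 457 FPKM in Dahl R. *Slc37a4*, the glucose 6-phosphate transporter, had 91.7 FPKM in Dahl S and 114 FPKM in Dahl R. None of the 27 genes of amino acid breakdown was called, against 1.5% of all genes. Of the 27, 22 lay below 0, against 4705 of all 10812 genes. Their median was −0.25, against 0.04 over all genes. Limits were apart for *Gldc*, of glycine cleavage, at 6.43 (4.84 to 8.01) FPKM in Dahl S, against 12.1 (9.64 to 14.6) FPKM in Dahl R, and for *Sardh* (SARDH_RAT), which oxidises sarcosine, at 43.04 (34.9 to 51.2) FPKM in Dahl S, against 64.8 (53.5 to 76.2) FPKM in Dahl R. *Bhmt*, which remethylates homocysteine, had 11.1 FPKM in Dahl S and 20.99 FPKM in Dahl R, with overlapping limits. The median was −0.04 for 16 genes of fatty acid oxidation and 0.07 for 14 of glycolysis, and neither list held a call.

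The wider proximal tubule list (23 members) had a median of −0.13. It held 1 call in each direction, against 0.851% of all genes higher and 0.647% lower. Beside *Pck1*, *Anpep*, the brush border aminopeptidase N, was called higher at 499.5 (285 to 714) FPKM in Dahl S, against 242 (147 to 337) FPKM in Dahl R, with overlapping limits. The endocytic receptor *Lrp2* had 79.1 FPKM in Dahl S and 112 FPKM in Dahl R, and the nuclear receptor *Hnf4a*, which maintains proximal tubule identity, had 119 FPKM in Dahl S and 173 FPKM in Dahl R. *Aco1*, the cytosolic aconitase that also binds iron-responsive RNA, had limits apart at 76.03 (55.2 to 96.8) FPKM in Dahl S, against 143 (103 to 183) FPKM in Dahl R.

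Calls among the cytochromes P450, enzymes that oxidise drugs, steroids and fatty acids, were lower in every case. Of 30 cytochromes P450, 4 were called lower and 0 higher, against 0.647% and 0.851% of all genes. All 4 had limits apart, against 0.49% of all genes lower with limits apart, although the median of the family was −0.03. *Cyp1a1*, the classical target of the aryl hydrocarbon receptor, was listed at 4.87 (3.05 to 6.699) FPKM in Dahl S, against 25.1 (17.8 to 32.3) FPKM in Dahl R. *Cyp2d1* and *Cyp2d5*, neighbours on chromosome 7, were listed at 18.02 (12.2 to 23.8) FPKM in Dahl S, against 57.6 (40.9 to 74.2) FPKM in Dahl R, and at 16.9 (11.4 to 22.4) FPKM in Dahl S, against 38.1 (27.02 to 49.1) FPKM in Dahl R. Their relative *Cyp2d2* lay on the other side, at 73.7 FPKM in Dahl S and 41.6 FPKM in Dahl R, with overlapping limits. How reads were divided between these related genes is not given. The fourth, *Cyp2c11*, which is male-specific in rat liver, had a log2 ratio of −2.07. The GCGTG core bound by the aryl hydrocarbon receptor, searched on both strands, was in 33.3% of the promoters of lower genes, 34% of those of higher genes, 49.5% of those of all members and 29.7% of all promoters.

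Of 17 glutathione S-transferases, which conjugate glutathione to electrophiles, *Gsta2* was called lower, against 0.647% of all genes. Of the 17, 12 lay below 0, against 4705 of all 10812 genes. Their median was −0.16, against 0.04 over all genes. *Gsta2* was listed at 215 (151 to 279) FPKM in Dahl S, against 523 (340.3 to 707) FPKM in Dahl R. A second alpha-class record, LOC494499, was also called lower at 118 (83.8 to 152) FPKM in Dahl S, against 253 (176 to 329.9) FPKM in Dahl R. *Gsta4* had limits apart under the threshold, at 42.8 (29.5 to 56.1) FPKM in Dahl S, against 82.7 (58.8 to 107) FPKM in Dahl R. Genes of this class are close copies of one another, so the split of reads among them is uncertain. Among 214 solute carriers 1 was called lower and 1 higher, against 0.647% and 0.851% of all genes. *Slc22a2*, the organic cation transporter of the basolateral membrane, was the lower call, with a log2 ratio of −1.13. *Slc16a1*, a carrier of lactate and ketone bodies, was the single higher one at 16.5 (11.6 to 21.5) FPKM in Dahl S, against 6.298 (4.23 to 8.36) FPKM in Dahl R.

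The list of androgen-dependent and sex-biased kidney genes, which overlaps these families, held 4 lower calls and 1 higher among 14 members. Of all genes, 0.647% were called lower and 0.851% higher. The median of the list, −0.53, was the lowest of all lists with at least 10 members. *Acsm3*, which activates medium-chain fatty acids, had limits apart at 46.1 (33.7 to 58.5) FPKM in Dahl S, against 89.8 (65.3 to 114) FPKM in Dahl R. The kidney androgen-regulated protein *Kap* was listed at 3612 FPKM in Dahl S and 4734 FPKM in Dahl R, with a log2 ratio of −0.39. The higher call was *Akr1b7*, an aldo-keto reductase, with a log2 ratio of 1.29. The sources used here do not give the sex of the animals, so sex and strain cannot be told apart.

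Of 16 retinoid genes, 1 was called higher and 2 lower, against 0.851% and 0.647% of all genes. *Rdh2* and *Rdh7*, dehydrogenases named for acting on retinol, were called lower, at 5.304 (3.48 to 7.13) FPKM in Dahl S, against 30.4 (23.3 to 37.5) FPKM in Dahl R, and at 0.332 (0 to 0.668) FPKM in Dahl S, against 2.77 (1.55 to 3.98) FPKM in Dahl R. *Crabp1*, the cytosolic carrier of retinoic acid, was called higher at 7.87 (4.36 to 11.4) FPKM in Dahl S, against 1.86 (0.716 to 3.01) FPKM in Dahl R, and *Stra6*, the cell surface receptor for retinol-binding protein, had limits apart at 10.6 (7.83 to 13.3) FPKM in Dahl S, against 5.95 (4.26 to 7.63) FPKM in Dahl R. The retinoic acid receptors *Rara* and *Rarg* and their partner *Rxra* had log2 ratios of 0.07, −0.09 and −0.10. The median of the 16 members was 0.11, and 0 with a minimum mean of 5 FPKM.

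Among coagulation genes 2 were called lower and 1 higher of 25, against 0.647% and 0.851% of all genes, with a median of 0.09. *Serpinc1*, which encodes the thrombin inhibitor antithrombin, was listed at 8.18 (5.33 to 11.03) FPKM in Dahl S, against 47.2 (33.98 to 60.5) FPKM in Dahl R, and *F5*, the cofactor of factor Xa, at 2.03 (1.41 to 2.65) FPKM in Dahl S, against 8.76 (6.32 to 11.2) FPKM in Dahl R. Both lie on chromosome 13. SHR was intermediate for *Serpinc1*, at 24.8 FPKM, and near Dahl R for *F5*, at 7.49 FPKM. Thrombomodulin (*Thbd*), at 11.4 FPKM in Dahl S and 10.9 FPKM in Dahl R, and tissue factor (*F3*), at 16.3 FPKM in Dahl S and 18.7 FPKM in Dahl R, were within 1.5-fold.

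Genes that control salt and blood pressure held 1 call. Of 33 genes of the renin system, natriuretic peptides and their receptors, the median was 0.04 (0.00 after scaling to the median of ratios), and 1 member was lower, against 0.647% of all genes. It was *Guca2b*, which encodes uroguanylin, a peptide that promotes salt excretion, at 1.97 (0.115 to 3.82) FPKM in Dahl S, against 11.97 (7.63 to 16.3) FPKM in Dahl R. *Agt* was listed at 52.2 (37.1 to 67.3) FPKM in Dahl S, against 60.4 (42.8 to 78.04) FPKM in Dahl R, and *Ace* at 4.95 (3.503 to 6.4004) FPKM in Dahl S, against 4.56 (3.04 to 6.08) FPKM in Dahl R, both with overlapping limits. *Agtr1a*, the main angiotensin receptor of the kidney, had 27.5 FPKM in Dahl S and 26.7 FPKM in Dahl R. *Sgk1*, the aldosterone-induced kinase, had 60.9 (45.5 to 76.3) FPKM in Dahl S, against 36.9 (27.2 to 46.6) FPKM in Dahl R, with overlapping limits, and *Hsd11b2*, which shields the mineralocorticoid receptor from glucocorticoids, had 327 FPKM in Dahl S and 269 FPKM in Dahl R.

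The remaining members of this group chosen for their role also lay under 2-fold: *Kl* at 55.1 FPKM in Dahl S and 60.3 FPKM in Dahl R, *Edn1* at 1.52 FPKM in Dahl S and 1.29 FPKM in Dahl R, and *Nos1* at 1.004 FPKM in Dahl S and 1.23 FPKM in Dahl R. The endothelin receptor *Ednra* had 10.2 FPKM in Dahl S and 5.98 FPKM in Dahl R. *Adra1d*, an alpha-1 adrenergic receptor that contracts vessels, was not on that list and was called higher at 5.45 (3.66 to 7.24) FPKM in Dahl S, against 1.46 (0.861 to 2.05) FPKM in Dahl R. Of 21 genes of tubular sodium and chloride transport none was called at either side, and the median was 0.00, or −0.04 after scaling to the median of ratios. The thiazide-sensitive cotransporter *Slc12a3* had 135 (90.5 to 179) FPKM in Dahl S, against 193 (121 to 264) FPKM in Dahl R, and the furosemide-sensitive one, *Slc12a1*, had 299.9 (242 to 357) FPKM in Dahl S, against 364 (286 to 442) FPKM in Dahl R. The gamma subunit of the epithelial sodium channel, *Scnn1g*, had 16.6 FPKM in Dahl S and 16.3 FPKM in Dahl R.

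Genes that respond to fatty acids through the nuclear receptor PPARA had a median of 0.32 over 14 members and 1 call, against 1.5% of all genes. It was *Ucp3*, a mitochondrial carrier, higher at 1.98 (1.06 to 2.91) FPKM in Dahl S, against 0.436 (0.145 to 0.727) FPKM in Dahl R. SHR was above both, at 3.9 FPKM. The adipocyte gene *Ucp1* had the same order, with 155 FPKM in SHR, and the part of other tissue in the *Ucp3* value was not tested. Targets of corticosteroid receptors had a median of 0.30 over 20 members. They held 1 call in each direction, against 0.851% of all genes higher and 0.647% lower. These were *Cdkn1a* and *Bcl6*, both described above. *Tgm2*, a protein cross-linking enzyme, had limits apart under the threshold at 271 (206 to 335) FPKM in Dahl S, against 161 (123 to 200.1) FPKM in Dahl R. Of the other marker lists, intercalated cells (16 members, median 0.24) and adipocytes (13 members, median 0.23) held no call, and the calcium, phosphate and magnesium list (18 members, median −0.14) held none either.

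Several called genes have not been described with a group above. *Ccdc162*, a coiled-coil protein, was higher at 5.31 (2.9996 to 7.63) FPKM in Dahl S, against 0.839 (0.247 to 1.43) FPKM in Dahl R, and *Sv2a*, a synaptic vesicle protein, at 9.48 (6.47 to 12.5) FPKM in Dahl S, against 3.26 (2.08 to 4.44) FPKM in Dahl R. *Hfe2*, or hemojuvelin, which raises hepcidin in the liver, was higher at 4.36 (2.84 to 5.89) FPKM in Dahl S, against 0.553 (0.107 to 0.999) FPKM in Dahl R. *Ihh*, a hedgehog ligand, was higher at 14.1 (9.56 to 18.6) FPKM in Dahl S, against 6.37 (4.15 to 8.58) FPKM in Dahl R, and *Tmed6*, of the secretory pathway, at 22.2 (14.5 to 29.96) FPKM in Dahl S, against 9.22 (5.64 to 12.8) FPKM in Dahl R. On the lower side stood *Syne2*, which ties the nucleus to the cytoskeleton, at 5.64 (3.78 to 7.51) FPKM in Dahl S, against 14.6 (10.7 to 18.6) FPKM in Dahl R, and *Bmp3*, a ligand of the bone morphogenetic protein family, at 4.36 (2.61 to 6.11) FPKM in Dahl S, against 11.2 (7.601 to 14.8) FPKM in Dahl R. *Bmp3* was the single call among 9 loop of Henle markers, against 1.5% of all genes called. The median of these markers was 0.00 and below 0 under the 3 scalings.

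*Phf19*, which is part of a Polycomb complex, was lower at 3.44 (2.08 to 4.802) FPKM in Dahl S, against 9.96 (6.86 to 13.1) FPKM in Dahl R, as were *Anxa13*, a membrane-binding annexin, at 1.63 FPKM in Dahl S and 5.19 FPKM in Dahl R, and *Vwce*, a secreted protein with von Willebrand domains, at 1.78 FPKM in Dahl S and 5.41 FPKM in Dahl R. *Gc*, the vitamin D carrier of plasma, was lower at 13.8 (9.17 to 18.4) FPKM in Dahl S, against 29.1 (20.5 to 37.6) FPKM in Dahl R. Of 27 potassium channel genes, 1 was called lower and 1 higher, against 0.647% and 0.851% of all genes. *Kcng1*, a silent subunit, was lower at 1.67 (0.866 to 2.48) FPKM in Dahl S, against 5.22 (3.37 to 7.08) FPKM in Dahl R. *Kcnk13*, a background channel, was higher at 4.07 (1.504 to 6.63) FPKM in Dahl S, against 1.04 (0 to 2.08) FPKM in Dahl R, with overlapping limits.

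The following families and pathways held 0 calls, which for most is near the 1.5% of all genes called. None of 32 cytosolic ribosomal protein genes (median 0.10), 55 mitochondrial ribosomal protein genes (0.10), 30 proteasome genes (0.03, or −0.02 after scaling to the median of ratios), 157 zinc finger genes (0.04) and 25 cell cycle genes (0.06) was called. Nor was any of 35 genes of Wnt and Notch signalling (0.02, or −0.02 after that scaling), 25 of transforming growth factor beta and bone morphogenetic protein signalling (0.09) and 32 of lysosome and autophagy (0.08).

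Some called genes lay close together. Of the 162, 40 (24.7%) had another within 1 Mb, in 16 runs, of which 11 held calls in 1 direction and 5 in both. The share of all genes with a called gene within 1 Mb was not computed, so the 24.7% has no baseline. Directly next to a called gene, 6 of 161 next members were called (3.73%), 5 of them in the same direction, against 1.5% of all genes. Chromosome 7 had the highest share, with 17 of 707 members called (2.40%), and chromosome 16 the lowest among the numbered ones, with 1 of 333 (0.3%). Related genes that lie side by side can share reads, so counts within such runs are uncertain.

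On chromosome 7, *Rdh2* and *Rdh7* lie with D3ZJP5_RAT in chr7:67751898-67831746, where 3 of 4 members were called lower. The 4 summed to 6.34 FPKM in Dahl S and 38.1 FPKM in Dahl R. The other member, RGD1561812, had 0.5202 FPKM in Dahl S and 2.005 FPKM in Dahl R. Farther along the same chromosome, the Ly6 cluster at chr7:113242198-113438186 held calls in opposite directions. *Ly6b* was higher, and *Ly6al* and LOC300024, at 15.9 (9.83 to 22.02) FPKM in Dahl S, against 39.01 (26.8 to 51.2) FPKM in Dahl R, were lower. The 4 members summed to 160.2 FPKM in Dahl S and 258.5 FPKM in Dahl R, a smaller ratio than that of *Ly6b* or *Ly6al* alone. How reads were divided between these related genes is not given.

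The alpha-class transferases *Gsta2* and LOC494499 are direct neighbours at chr8:83202549-83315635, with 333 FPKM in Dahl S and 776 FPKM in Dahl R together. *Rtn4ip1*, a mitochondrial reductase, and D3ZD79_RAT, also direct neighbours, were both lower, at 12.3 FPKM together in Dahl S and 31.1 FPKM in Dahl R. A run on chromosome 1 at chr1:94062604-94583357, which includes kallikrein genes, held 3 calls among 11 members, 1 higher and 2 lower. RGD1563073 was higher at 2.68 (1.36 to 3.995) FPKM in Dahl S, against 0.637 (0.212 to 1.06) FPKM in Dahl R. LOC100364577 was lower at 12.8 (7.87 to 17.8) FPKM in Dahl S, against 58.9 (41.6 to 76.3) FPKM in Dahl R, and *Klks3* was lower at 5.87 (3.197 to 8.54) FPKM in Dahl S, against 13.04 (8.35 to 17.7) FPKM in Dahl R, with overlapping limits, while tissue kallikrein (*Klk1*), which releases kinins, had 15.6 FPKM in Dahl S and 18.6 FPKM in Dahl R. On chromosome 2, a run at chr2:190660685-191619320 held 5 calls among 27 members, all with limits apart. *Sv2a*, F1LP73_RAT and *Hfe2* were higher there, and RGD1566380 and *Cd160*, a receptor of natural killer cells, were lower, the last at 0.251 (0 to 0.753) FPKM in Dahl S, against 3.36 (1.49 to 5.23) FPKM in Dahl R. On chromosome 9, *Ihh* and *Resp18* were called higher at the ends of a run of 13 members, and *Slc23a3* between them had limits apart on the lower side, at 24.8 FPKM in Dahl S and 47.4 FPKM in Dahl R.

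**Figure D4:**
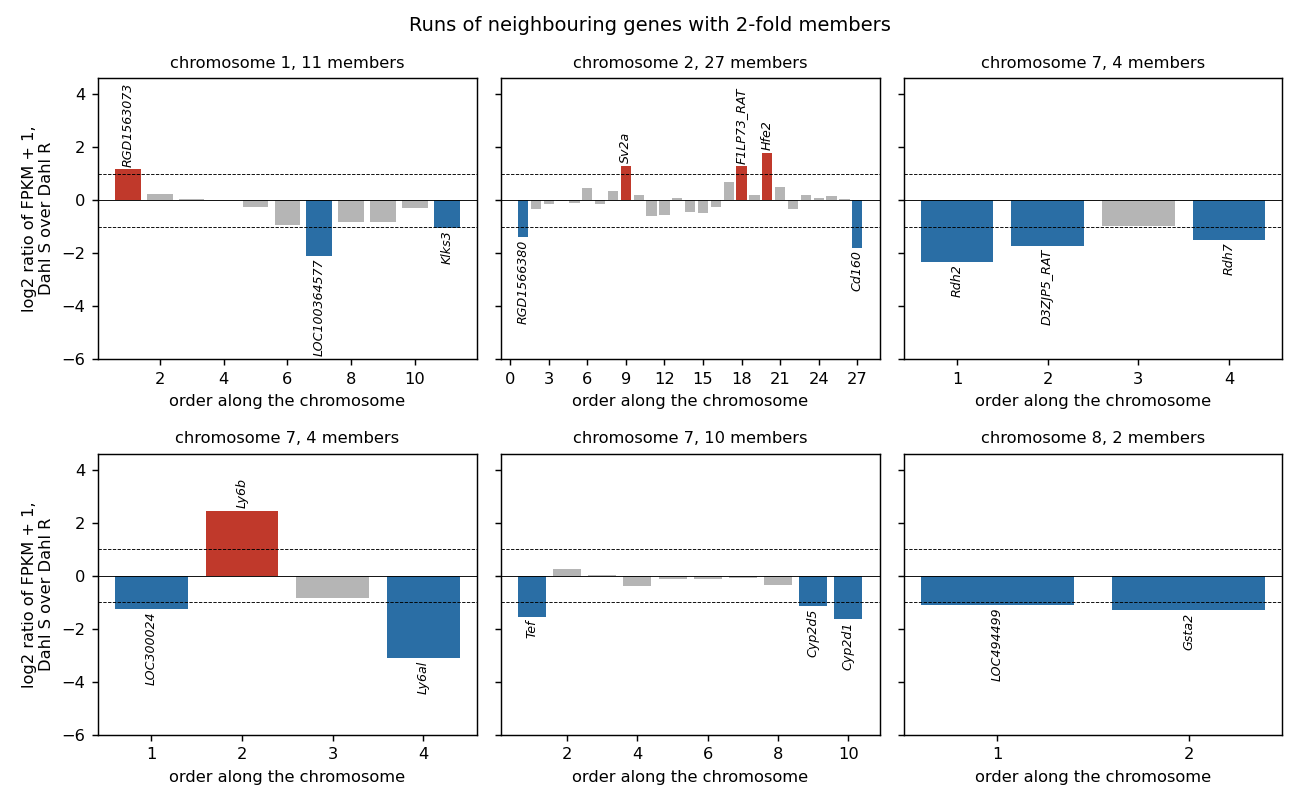
Log2 ratio of FPKM + 1, Dahl S over Dahl R (vertical axis), for all members of 6 runs of neighbouring genes, in their order along the chromosome (horizontal axis). Red and blue bars are members called higher and lower in Dahl S, grey bars are not called, and dashed lines mark the threshold. The Ly6 run on chromosome 7 holds a ratio of 2.46 beside one of −3.12.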

How the data were processed

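The authors deposited 1 table per strain with FPKM for each record and a lower and upper limit, per the file headers; TopHat 1.3.1 and Cufflinks 1.0.3 are named per the submitters' processing notes. The sources used here do not state the genome build, annotation release, read totals, strandedness or confidence level of the limits, so depth is unknown. The half-width of the limits was 33.3% of the value in Dahl S and 32.0% in Dahl R (medians over members).

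Records were taken as deposited, without rescaling. A pseudocount of 1 FPKM was added before the log2 ratio, which understates the difference of low genes. With 1 library per strain there was no test. The scripts were tested on simulated data with known differences. Shared loci were left out because reads of overlapping genes cannot be separated.

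The members, 62 gene lists and 33 gene families by name were chosen with earlier results of these data known. Of 1471 listed genes, 967 were matched to a member, 162 were unmatched, and RefSeq (GRCr8) served for names and promoters. Named genes were the 20 highest and 20 lowest ratios among members with a symbol, limits apart and a larger value of at least 5 FPKM, up to 4 called members of each list or else its 2 most abundant, and genes of blood pressure control. Some genes that this choice covers are not reported here. *Nr3c2*, at a shared locus, and *Cyp11b1*, under the minimum, belong to the last and are no members. Genes named for limits apart under 2-fold, for opposite or small ratios within a list, or as neighbours were chosen after their values were seen, as were *Adra1d*'s mention under blood pressure and several calls named without a list. Alternatives were pseudocounts of 0.1 and 5 FPKM, a minimum mean of 5 FPKM or none, 3 scalings, shared loci included and loci of at least 300 bases. Python 3.11.15, numpy 2.4.6, pandas 2.3.3 and matplotlib 3.10.9 were used.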

Additional observations from a re-analysis of the deposited data

How the results depend on the processing

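Counts are given for higher, lower, higher with limits apart and lower with limits apart, beside 92, 70, 50 and 53 in the main comparison, and for called genes with another within 1 Mb, beside 40. Pseudocounts changed the counts most. With 0.1 FPKM, 238 were higher, 132 lower and 157 near another. With 5 FPKM, 17 were higher, 23 lower, 14 higher with limits apart, 22 lower with limits apart and 7 near another, and 40 of the 162 main calls were kept. With a minimum mean of 5 FPKM, 34 were higher, 43 lower, 27 higher with limits apart and 16 near another, and 77 main calls were kept. Without a minimum, 67 were near another. With shared loci included, 152 were higher, 127 lower, 89 higher with limits apart, 93 lower with limits apart and 126 near another. The remaining counts, and all counts under the 3 scalings and with loci of at least 300 bases, stayed within 1.5 times. Higher calls made up 56.8% in the main comparison, 50.3% to 53.5% under the scalings, 42.5% with a pseudocount of 5 FPKM and 44.2% with a minimum of 5 FPKM. None of the 162 called genes changed direction under any of these settings in which it was measured, but none could have. Filters only add or drop genes, a pseudocount keeps the sign of a ratio, and the scaling factors on Dahl R were 1.02 to 1.03. Of 95 list and family medians, 14 changed sign under the median of ratios, 11 under the sum without mitochondrial and haemoglobin records 9 under the upper quartile, 5 with shared loci and 4 without a minimum. With a minimum mean of 5 FPKM, 10 of 93 did, among them that of the TNF superfamily, at −0.21 beside 0.08. The width of the limits, and not a spread between animals, sets what can be told apart here. No paired analysis was possible because each strain has 1 library.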
